A study of Mus musculus with 11 samples.

Results

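The genes for a pair of secreted vascular signals, Vegfa and Adm, were followed in the gingival epithelium of mice with and without a tooth ligature. They were chosen by name from a deposited table, and they are 2 of its 178 genes. The 11 RNA-seq libraries came from male B6 mice. Naive mice (n = 4 libraries) carried no ligature, the ligature group (n = 3) had a silk thread tied around the second molars of the upper jaw, and the removal group (n = 4) had its thread cut away on day 3. Epithelium was peeled from Dispase-treated gingiva, and polyA RNA was sequenced with a strand-preserving kit. The sources used here give neither the age of the mice nor the day of tissue collection, and do not say whether each library is a separate animal. The p-values below therefore measure the spread between these libraries.

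Vegfa encodes vascular endothelial growth factor A, a secreted protein that acts through receptors on endothelial cells and drives the growth and leakiness of blood vessels. Adm encodes the precursor of adrenomedullin, a secreted peptide that widens vessels, tightens the endothelial barrier and has antimicrobial activity at epithelial surfaces. Keratinocytes make both, and both genes are textbook targets of the hypoxia-inducible factors and can also be induced by inflammatory and growth signals.

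The promoter windows of the genes are shown because both genes were lower after removal of the ligature than in naive epithelium. Each is the 250 bases before the transcription start in RefSeq, 5′ to 3′ on the strand of the gene, from build GRCm38.p6, which is not the build named for the reads (GRCm39). The Adm window lies at chr7:110627407-110627656 on the plus strand and the Vegfa window at chr17:46032378-46032627 on the minus strand. Capitals mark the Sp1 GC box GGGCGG and the TATA box TATAA on either strand.
Adm: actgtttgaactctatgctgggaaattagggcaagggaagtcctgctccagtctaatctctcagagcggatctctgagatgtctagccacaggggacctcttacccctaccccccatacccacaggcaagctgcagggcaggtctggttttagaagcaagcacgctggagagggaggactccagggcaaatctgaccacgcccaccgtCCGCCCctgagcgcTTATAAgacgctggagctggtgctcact
Vegfa: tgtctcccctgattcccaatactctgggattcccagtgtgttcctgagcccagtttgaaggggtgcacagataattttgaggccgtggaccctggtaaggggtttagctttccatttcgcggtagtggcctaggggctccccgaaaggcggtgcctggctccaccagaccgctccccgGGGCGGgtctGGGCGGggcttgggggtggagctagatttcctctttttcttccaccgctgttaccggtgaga

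The windows differ in these letters. The Vegfa window held GGGCGG at 2 places, beginning 72 and 62 bases before the start, and no TATAA. The Adm window held GGGCGG once on the minus strand, beginning 42 bases before the start, and TATAA on both strands in 2 overlapping matches, beginning 28 and 27 bases before it. Of all 32851 RefSeq promoter windows of this length, 32.7% held GGGCGG and 22.8% held TATAA on either strand. Among the 153 windows that matched genes of the deposited table by symbol, 61.4% held GGGCGG and 18.3% held TATAA. The core of the hypoxia response element ACGTG (in 16.6% of all windows), the AP-1 motif TGANTCA (6.75%), the Egr1 motif GCGNGGGCG (4.70%) and the partial cAMP response element TGACGT (6.47%) were in neither of these windows. The window of a second RefSeq start of Vegfa, inside the gene, held ACGTG and TGACGT in overlapping matches on the minus strand, beginning 211 and 210 bases before that start, and GGGCGG beginning 158 bases before it. Gene counts do not tell the starts apart.

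The 178 genes of the deposited table are a selection and sum to between 282274 and 503570 counts in a library, so library depth is unknown. Levels are normalised read counts, in which the authors divided each library's counts by its size factor. Differences are log2 fold changes with their SE from edgeR's quasi-likelihood test on the raw counts, and a gene is called at a Benjamini-Hochberg adjusted p under 0.05 over the 176 genes tested. For each gene of the table the smaller unadjusted p of the comparisons with naive did not exceed 0.0103 (DESeq2 with a term for library set), so the table appears to be selected on these groups. For Adm the p was 7.22e-06 in ligature against naive and 0.00789 in removal against naive; for Vegfa it was 0.666 and 0.000197 (DESeq2). A difference of Vegfa in the removal comparison, and of Adm in either, is what this selection would keep and has no independent support here. The deposited batch correction splits the libraries into set A (naive replicates 1 and 2, ligature replicate 1, removal replicates 2, 3 and 4) and set B (the other 5 libraries). The labels name no batch.

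Per kilobase of merged exon (4285 bases for Vegfa and 1619 for Adm in GENCODE M21), Vegfa was the more abundant transcript in all 3 groups. Naive libraries had 318.3 ± 15.5 normalised counts per kilobase of Vegfa (SD, n = 4) and 71.55 ± 11.9 of Adm. By the mean of this per-kilobase level over all 11 libraries, Vegfa ranked 59 and Adm ranked 124 among the 177 table genes with a length. The raw counts were 913 to 1823 per library for Vegfa and 56 to 161 for Adm. Counting error alone gives a coefficient of variation of 2.69% to 3.05% for Vegfa and 9.67% to 12.6% for Adm, averaged within a group.

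Adm was lower in every ligature library than in every naive library. Naive replicates 1 to 4 had 116.0, 94.94, 110.9 and 141.5 normalised counts of Adm (ENSMUSG00000030790). Ligature replicates 1 to 3 had 51.98, 61.30 and 59.52. The ligature values lay close together, with a coefficient of variation of 8.595% that is under the 12.6% expected from counting error, and they did not overlap the naive values. The group mean fell from 115.8 ± 19.3 (SD, n = 4) to 57.60 ± 4.95 (n = 3), a ratio of 0.497.

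On the log2 scale Adm changed by -1.01 ± 0.22 with the ligature (SE; edgeR adjusted p = 0.00277). Of the genes tested, 85.2% were called in this comparison 56.8% were called lower and 28.4% higher, and in 48.3% of the table's genes all ligature libraries were below all naive ones, so that a call of lower expression is common in this table. Adm stood 0.62 below the median of the tested genes (-0.38) and was the 34th lowest of 176. TMM factors, which are computed over the table, move that median to -0.02 and assume that most of the table's genes did not change. They gave Adm -0.64 ± 0.22 (edgeR adjusted p = 0.0248), where 28.4% of genes were called lower. The direction and the call of Adm held on both scales. In set A the ligature-to-naive ratio of means was 0.493 and in set B it was 0.479. The call was made in all 11 fits with 1 library left out.

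Vegfa did not show this drop. Naive replicates 1 to 4 had 1462, 1330, 1343 and 1320 normalised counts of Vegfa (ENSMUSG00000023951), and ligature replicates 1 to 3 had 1553, 1274 and 1079. Ligature replicate 1 was above every naive library, and ligature replicates 2 and 3 were below every naive library. The coefficient of variation of Vegfa in the ligature group was 18.3%, against 4.86% in naive and 7.49% in removal libraries.

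The mean of Vegfa was 1364 ± 66.2 in naive (SD, n = 4) and 1302 ± 238.5 in ligature libraries (n = 3). Its log2 fold change of -0.07 ± 0.12 did not pass the test (edgeR adjusted p = 0.600). On the TMM scale the value was 0.29 ± 0.11 and was called higher (edgeR adjusted p = 0.0333), where 36.4% of the genes were called higher. That scale assumes that most genes of the table did not change, while 85.2% of those tested were called with the deposited factors. Neither a direction nor its absence can be read for Vegfa without a choice of scale. Relative to the median of the tested genes, Vegfa stood 0.32 higher. In set A, where the ligature group has replicate 1 alone, the ligature-to-naive ratio of means was 1.11, and in set B it was 0.884. That library and that set cannot be told apart in the ligature group.

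**Figure D1:**
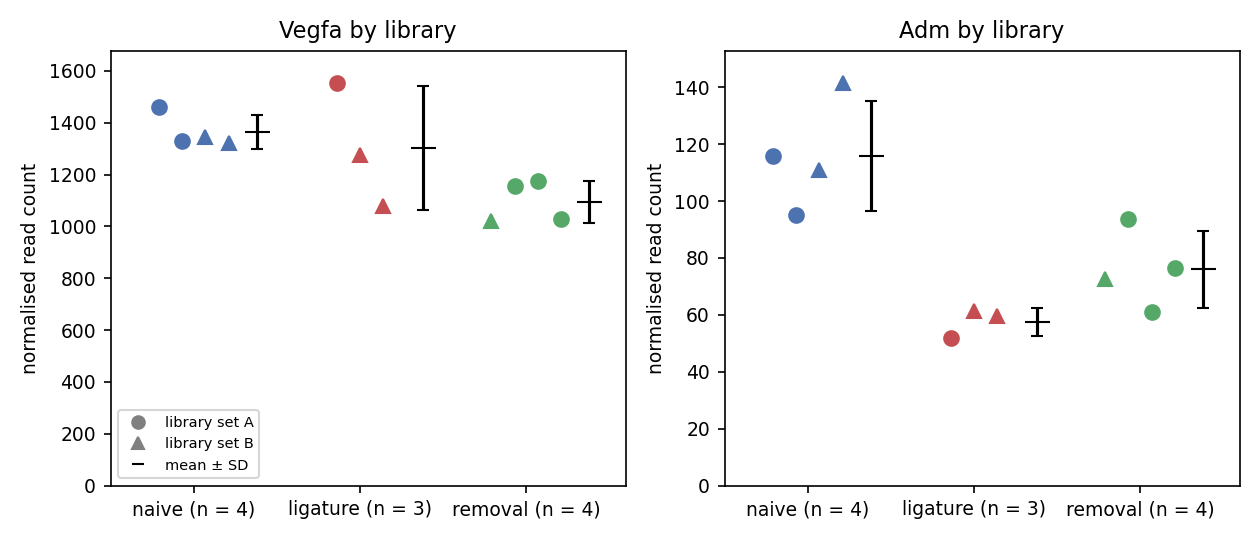
Normalised read counts (vertical axes, linear from 0) of Vegfa and Adm in each library of the naive, ligature and removal groups. Circles are libraries of set A, triangles those of set B, and black bars give the group mean ± SD. Adm is lower in all 3 ligature libraries (51.98 to 61.30) than in the 4 naive libraries (94.94 to 141.5), while the Vegfa values of the ligature group (1079 to 1553) span those of the naive group (1320 to 1462).

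After removal of the ligature both transcripts were below naive. Removal replicates 1 to 4 had 1019, 1154, 1174 and 1027 normalised counts of Vegfa, and each of the 4 was under the lowest naive library (1320). The same libraries had 72.58, 93.71, 61.04 and 76.62 normalised counts of Adm, and the highest of them, replicate 2, was just under the lowest naive library (94.94). The groups did not overlap for either gene. In 27.5% of the table's genes all removal libraries were below all naive ones.

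For Vegfa the mean fell to 1094 ± 81.9 (SD, n = 4), a ratio of 0.802 to naive, or -0.32 ± 0.11 in log2 (edgeR adjusted p = 0.0418). For Adm it fell to 75.99 ± 13.5 (n = 4), a ratio of 0.656, or -0.61 ± 0.20 in log2 (edgeR adjusted p = 0.0360). Calls between removal and naive covered 37.5% of the genes tested, and 24.4% were calls of lower expression.

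Both calls lie near the threshold. With TMM factors they were lost, at -0.12 ± 0.10 for Vegfa (edgeR adjusted p = 0.375) and -0.41 ± 0.20 for Adm (edgeR adjusted p = 0.126); the sign stayed negative for both. Leaving out 1 library lost the Vegfa call for each of the 8 naive and removal libraries and the Adm call in 6 of the 11 fits, which left out naive replicate 1, 3 or 4 or removal replicate 1, 3 or 4. With a term for library set both were called, Vegfa at -0.37 ± 0.09 (edgeR adjusted p = 0.00668) and Adm at -0.56 ± 0.19 (edgeR adjusted p = 0.0202; 48.9% of genes called lower with that term). The removal-to-naive ratio of means was 0.801 in set A and 0.766 in set B for Vegfa, and 0.731 and 0.575 for Adm.

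Between removal and ligature the genes pointed opposite ways, and neither difference passed the test. Adm averaged 57.60 with the ligature and 75.99 after removal, which is 0.40 ± 0.22 in log2 (edgeR adjusted p = 0.189). The groups overlapped narrowly, since removal replicate 3 (61.04) lay below ligature replicate 2 (61.30). Vegfa averaged 1302 and 1094, which is -0.25 ± 0.12 in log2 (edgeR adjusted p = 0.147), and 2 of the 4 removal libraries lay above ligature replicate 3 (1079). Of the tested genes 19.9% were called between these groups, 17.0% higher and 2.84% lower.

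The Vegfa difference passed the test under some of the other settings. It was -0.40 ± 0.11 with TMM factors (edgeR adjusted p = 0.0352; 6.82% of genes called lower) and -0.32 ± 0.10 with a term for library set (edgeR adjusted p = 0.0379; 5.68% called lower). In set A, the 3 removal libraries (1027 to 1174) were below ligature replicate 1 (1553), a ratio of 0.720, and in set B removal replicate 1 (1019) was below ligature replicates 2 and 3, a ratio of 0.867. Vegfa was not called in DESeq2 with the deposited factors (DESeq2 adjusted p = 0.121) or in limma on corrected values (limma adjusted p = 0.0634). Nor was it called with the replicate block (edgeR adjusted p = 0.285) or with the 2 groups alone (edgeR adjusted p = 0.205). None of the 11 fits with 1 library left out called it, and without ligature replicate 1 it was -0.11 (edgeR adjusted p = 0.443). Adm was not called with any scaling or term tried. All 3 comparisons use the same libraries in pairs, so they are not independent of one another.

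**Figure D2:**
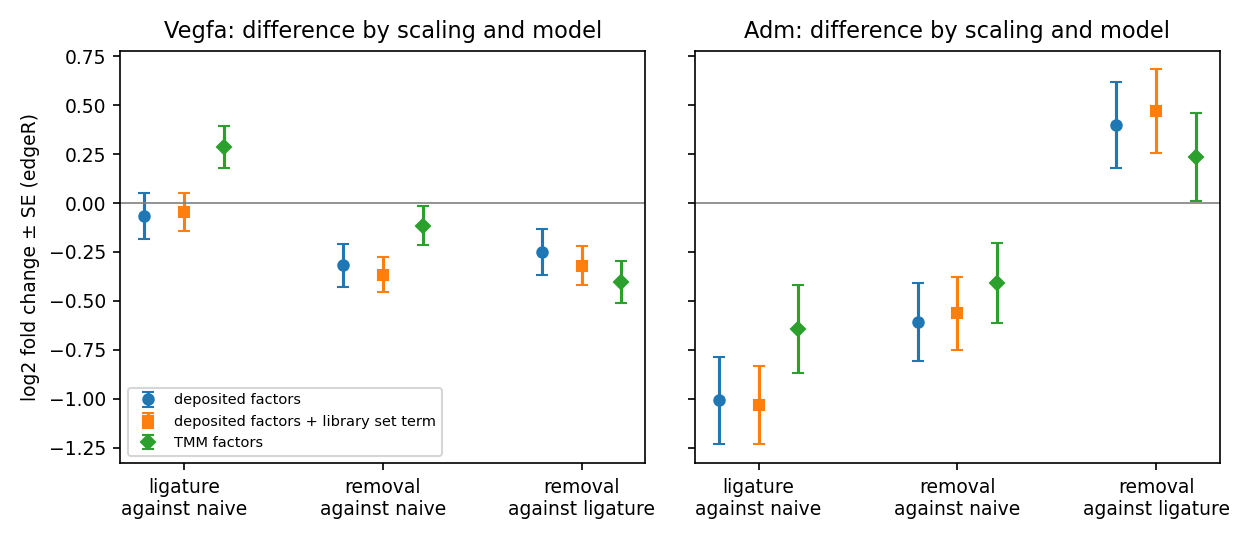
Log2 fold change with its SE (vertical axis, edgeR) of Vegfa and Adm in the 3 comparisons, with the deposited size factors, with those factors and a term for library set, and with TMM factors over the table. Adm against naive is below 0 with each, at -1.01, -1.03 and -0.64 for the ligature, whereas Vegfa in ligature against naive moves from -0.07 to 0.29 with the scale.

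The ratio of Vegfa to Adm counts within a library does not depend on any size factor, so it was set beside the scaled values. There were 12.6, 14.01, 12.11 and 9.329 Vegfa counts per Adm count in naive replicates 1 to 4. Ligature replicates 1 to 3 had ratios of 29.89, 20.78 and 18.12, all above the naive range. Removal replicates 1 to 4 had ratios of 14.05, 12.32, 19.23 and 13.40.

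Removal replicate 3, the removal library with the least Adm, lay among the ligature libraries, replicates 2 and 4 lay within the naive range, and replicate 1 at 14.05 lay just above its highest library at 14.01. The mean ratio was 12.01 ± 1.96 in naive (SD, n = 4), 22.93 ± 6.17 in ligature (n = 3) and 14.75 ± 3.07 in removal libraries (n = 4). On the log2 scale, ligature minus naive was 0.92, removal minus naive 0.29 and removal minus ligature -0.63, given as descriptions without a test. Removal minus naive came to 0.16 without removal replicate 3 and 0.17 without naive replicate 4. With 1 library left out, ligature minus naive ran from 0.71 to 1.07 and removal minus ligature from -0.78 to -0.42. The ratio is of counts per gene and not per length, and it compares groups, not the abundance of the transcripts.

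**Figure D3:**
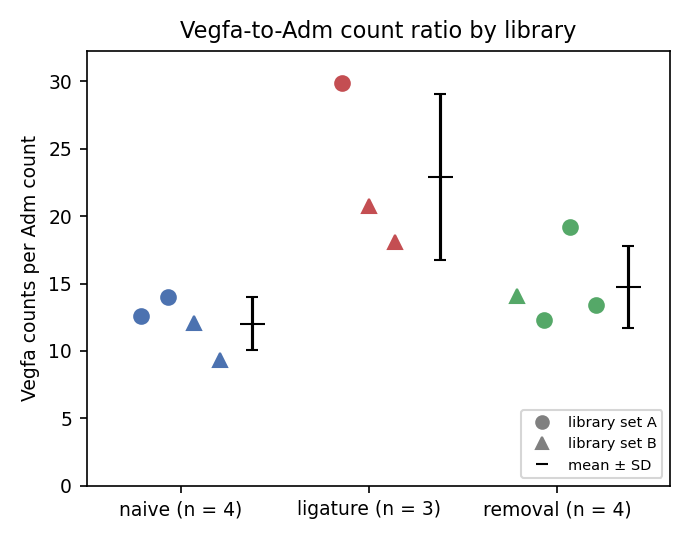
Vegfa counts per Adm count (vertical axis, linear from 0) in each library, a quantity free of library scaling. Circles are set A, triangles set B, and black bars the mean ± SD; the 3 ligature libraries (18.12 to 29.89) lie above the 4 naive ones (9.329 to 14.01), and removal replicate 3 (19.23) lies among the ligature libraries.

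Neither the receptors nor the sister ligands of these factors could be followed. Of 10 VEGF ligands and receptors listed, Vegfa alone was in the table, and of 10 adrenomedullin ligands and receptors Adm alone was. Of 39 genes of hypoxia sensing and HIF targets, 4 were present: the members, the glycolytic enzyme gene Pfkp, and Angptl4, which encodes an inhibitor of lipoprotein lipase.

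Among these 4 hypoxia list genes, 2 were called lower with the ligature (Adm and Angptl4) and 0 higher. Of all tested genes, 56.8% were called lower and 28.4% higher. The median log2 fold change was -0.54 for the 4 genes and -0.38 over all tested genes. With TMM factors 1 was called lower (Adm) and 2 higher (Vegfa and Pfkp), where 28.4% and 36.4% of all tested genes were. Pfkp stood at 0.31 ± 0.15 (edgeR adjusted p = 0.0653). With a library set term Pfkp was called higher, at 0.36 (edgeR adjusted p = 0.00397), which gave 2 lower and 1 higher where 59.7% and 29.5% of all tested genes were called lower and higher. The Angptl4 value of -1.34 had an edgeR adjusted p of 0.0496. The Angptl4 call was lost with TMM and in 6 of the 11 fits with 1 library left out. With a set term Angptl4 was called lower, at -1.59 (edgeR adjusted p = 0.000142).

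After removal 2 of the 4 were called lower than naive, the members themselves, where 24.4% of all tested genes were. Of the 4, 0 were called higher, and their median was -0.46 against -0.17 over all tested genes. Pfkp stood at 0.10 and Angptl4 at -1.43 (edgeR adjusted p = 0.544 and 0.0539). With TMM factors 0 were called lower and 1 higher, Pfkp, on a scale where 12.5% of all genes were called lower and 28.4% higher. With a set term 3 of the 4 were called lower, where 48.9% of all tested genes were, Angptl4 being the third at -1.05 (edgeR adjusted p = 0.00596). Against the ligature group 0 of the 4 were called in edgeR with the deposited factors, where 19.9% of all tested genes were, and 0 had an unadjusted p under 0.05. With TMM factors 1 was called lower, Vegfa, where 6.82% of all tested genes were. With a set term 2 were called lower, Vegfa and Pfkp (-0.32, edgeR adjusted p = 0.0369), where 5.68% of all tested genes were.

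Of 31 other vascular regulators 5 were present, and all 5 fell with the ligature: Angptl4, the EGF receptor ligands Hbegf and Areg, the matricellular protein gene Ccn1 and the prostaglandin synthase gene Ptgs2. Their log2 fold changes ran from -1.70 (Ptgs2) to -0.95 (Ccn1), with a median of -1.34, so Adm at -1.01 lay inside their range and Vegfa at -0.07 outside it. Over all tested genes 56.8% were called lower and the median was -0.38. With TMM factors 3 of the 5 were called lower, and Angptl4 and Ccn1 were not, where 28.4% of all tested genes were called lower. After removal 3 of 5 were called lower than naive, Hbegf (-0.72), Ccn1 (-0.69) and Ptgs2 (-1.34), with a median of -0.72, where 24.4% of all tested genes were called lower and the median was -0.17. The Ccn1 call was lost with TMM, which left 2 of the 5 called lower (12.5% of all tested genes), and in 6 of the 11 fits with 1 library left out. With a set term all 5 were called lower, Areg (-0.59, edgeR adjusted p = 0.0426) and Angptl4 included, where 48.9% of all tested genes were.

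Of 26 transcription factors known to act on the Vegfa or Adm gene, 9 were in the table: the AP-1 genes Fos, Fosb, Jun, Junb and Jund, and Atf3, Egr1, Cebpb and Klf6. All 9 were called lower with the ligature, with a median log2 fold change of -0.75, and 8 of 9 with TMM (Jund at -0.15 was not). Over all tested genes 56.8% were called lower, with a median of -0.38, and 28.4% with TMM. After removal 7 of 9 were called lower than naive, with a median of -0.44 (4 of 9 with TMM), and Cebpb (-0.32) and Klf6 (-0.16) did not pass. Over all tested genes 24.4% were called lower than naive, with a median of -0.17, and 12.5% with TMM. With a set term 8 of 9 were called lower, Cebpb (-0.38, edgeR adjusted p = 0.0156) among them and Klf6 not, where 48.9% of all tested genes were. The hypoxia-inducible factor genes Hif1a, Epas1 and Arnt were not in the table. The selected table favours a call for every gene in it. Whether the genes of these lists differ from the other genes of the table was not tested.

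**Figure D4:**
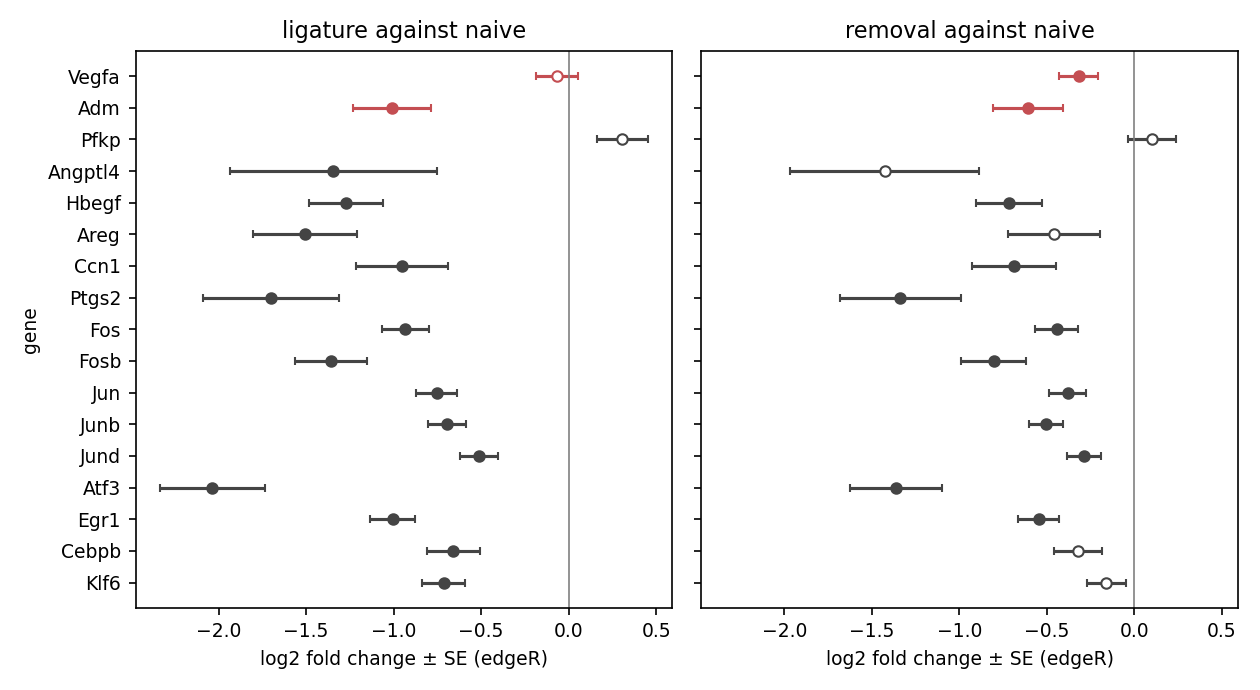
Log2 fold change with its SE (horizontal axes, edgeR with the deposited size factors) of Vegfa and Adm (red) and of the table's hypoxia, vascular and transcription factor list genes (dark), for ligature against naive and removal against naive. Filled points were called at an adjusted p under 0.05 and open points were not; with the ligature Vegfa (-0.07) and Pfkp (0.31) are the open points.

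Across all 11 libraries the patterns of Vegfa and Adm differed. The Pearson correlation of their log2(normalised count + 1) was 0.228 (Spearman 0.245), and 71 of the other genes followed Vegfa more closely than Adm did. These correlations share library, scaling and group, and are descriptions. The 5 genes most like Adm were Gadd45g, a growth arrest and stress gene (r = 0.966), the beta-defensin gene Defb14 (0.947), Fam71a (0.928), the macrophage marker Cd68 (0.922) and the antiproliferative gene Btg2 (0.921).

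Gadd45g had 688.2 ± 57.2 normalised counts in naive (n = 4), 263.8 ± 38.5 in ligature (n = 3) and 427.7 ± 81.8 in removal libraries (n = 4). Removal replicate 2 was the highest and replicate 3 the lowest removal library for both Gadd45g (506.7 and 316.1) and Adm (93.71 and 61.04). Gadd45g was picked by its correlation with Adm over these same libraries, so their shared order is no separate result. Fam71a had few counts outside the naive group, at 0.852 to 3.892 normalised counts in the ligature libraries.

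The genes most like Vegfa were the ribosomal protein pseudogene Rpl10-ps6 (r = 0.849), Ypel3 (0.807), Cracdl (0.788), the kinase gene Stk11 (0.752) and Rgl2, a guanine nucleotide exchange factor gene (0.735). Reads of Rpl10-ps6 may be shared with its parent gene, so its level is uncertain. Ypel3 averaged 1890 ± 141 in naive, 1483 ± 305.5 in ligature and 1451 ± 63.3 in removal libraries. As with Vegfa, ligature replicate 1, the only ligature library of set A, was the highest ligature library for all 5 of these genes. The 5 genes were picked by correlation with Vegfa over these same libraries. That replicate was also the highest ligature library for Pfkp, Krt10, Hbegf, Areg, Fosb, Junb, Egr1 and Cebpb. It was not the highest for Fos, Jun, Jund, Atf3, Klf6, Angptl4, Ccn1 or Ptgs2. The share over all genes of the table was not counted.

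**Figure D5:**
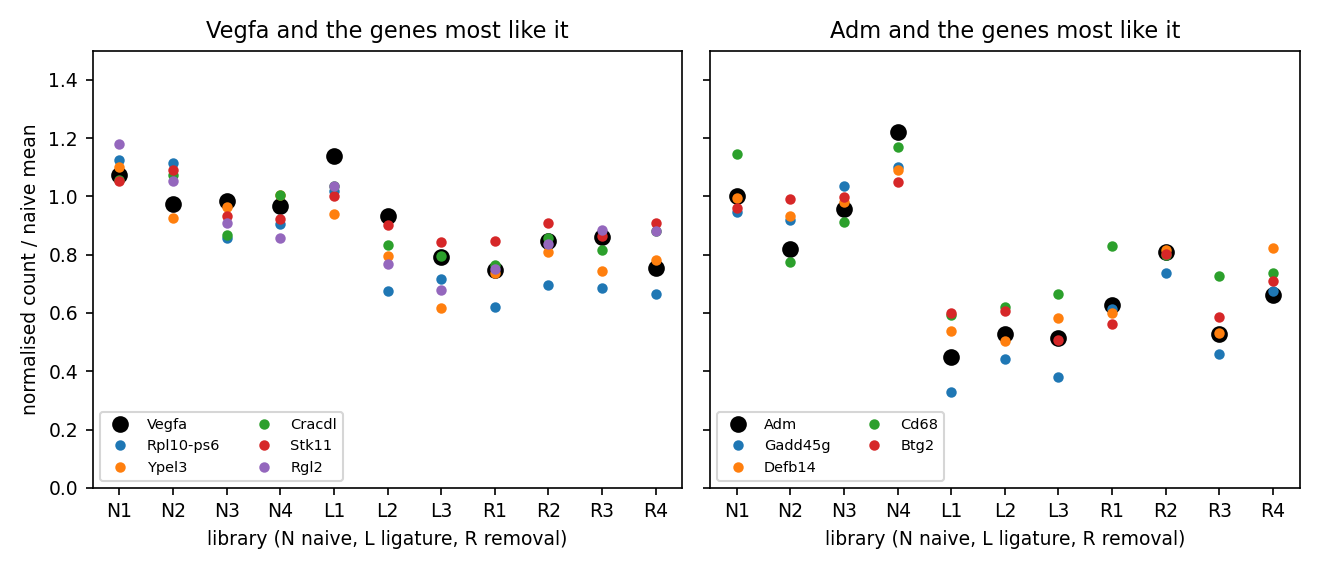
Normalised count divided by the mean of the naive libraries (vertical axis) for Vegfa (left, black), Adm (right, black) and the genes whose log2 levels correlated most with each, in the 4 naive (N), 3 ligature (L) and 4 removal (R) libraries. Fam71a, the third most like Adm, is left out of the plot for its low counts. Adm and its like genes are low in all ligature libraries. Vegfa and its like genes are highest of the ligature libraries in L1, the only ligature library of set A.

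Markers of other cell types could be read only in part. In bulk tissue, fewer cells of a type and less RNA per cell cannot be told apart. Of the endothelial, fibroblast, neutrophil, T and B cell, and Langerhans and dendritic cell markers listed, 0 were in the table. Of 9 macrophage and monocyte markers 1 was, Cd68, at 221.9 to 335.7 normalised counts in naive, 170.4 to 190.6 in ligature and 208.2 to 237.8 in removal libraries.

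Cd68 moved with Adm, falling with the ligature by 0.67 on the log2 scale (edgeR adjusted p = 0.00402; not called with TMM, -0.31). Of 16 keratinocyte markers 1 was in the table, the suprabasal keratin gene Krt10, which ran opposite to Adm and rose with the ligature (0.64 ± 0.22, edgeR adjusted p = 0.0182; the call was lost in 2 of the 11 fits with 1 library left out). Of 6 pericyte and smooth muscle markers 1 was, the proteoglycan gene Cspg4, which also rose (0.70 ± 0.17, edgeR adjusted p = 0.00435). Whether cell makeup has a part in the Adm and Vegfa values was not tested. In GENCODE M21 the Adm gene overlaps 1 gene model on the other strand, Gm28863, and no source used here states whether counting used strand, so reads of both cannot be told apart. No gene of that annotation overlaps Vegfa.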

How the data were processed

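RNA-seq of gingival epithelium was analysed from 1 table of 178 genes in 11 libraries, grouped by sample title. Raw counts per gene were deposited by the authors as whole numbers. The normalised read counts, a signal deposited by the authors, are those counts over a library's size factor (0.757 to 1.21, largest deviation 0.00189). Batch-corrected values deposited by the authors keep that scale, and 7 of them, in 3 genes, are below 0. Build GRCm39 and the tools DESeq2 1.36.0, HTSeq 2.01, TopHat2 2.1.1 and cutadapt 2.10 are listed, per the submitters' processing notes, without roles. For the correction method and its batches: not given in the sources used here.

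The test was edgeR's (4.0.16, under R 4.3.3) quasi-likelihood F test, two-sided, 1 mean per group over all libraries, scaled by the deposited size factors, default expression filter (Smr2 and Usp9y left out). The fit was tested on simulated data. Library sets are the 1 division of 957 within which corrected values were a linear function of normalised counts (median residual 4.2e-05% of the mean, next best 1.71%). No replicates were merged (smallest chi-square per degree of freedom within a group 20.4).

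Alternatives used upper-quartile, TMM and median-of-ratios factors, DESeq2 1.42.0, limma 3.58.1 on log2(corrected value + 1), a term for library set, a replicate block, no filter, the 2 groups alone, each set alone, and each library left out. Fits with DESeq2 and a set term, and fits within a set, were added after seeing the data, as was the TATAA search. Named genes are both members, list genes in the table (1 list gene is not reported here), and the 5 most correlated genes per member without predicted models. The members and lists were chosen with earlier results of these data known.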

Additional observations from a re-analysis of the deposited data

Results flagged for a closer look

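Naive replicate 1 had 1462 normalised counts of Vegfa, above the other naive libraries, of which the nearest had 1343. That gap is 0.838 of the range of the 4 naive libraries, more than the 95% critical value of Dixon's test. Chance passes this limit in about 1 of 20 groups, and 60 groups of 4 values were examined. Without this library Vegfa stood at -0.28 in removal against naive (edgeR adjusted p = 0.0849).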

How the results depend on the processing

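Adm in ligature against naive kept its direction and its call in every alternative run, from -1.09 to -0.90 with 1 library left out. Vegfa in that comparison turned positive with upper-quartile (0.14), TMM (0.29) and median-of-ratios factors (0.28) and in set A alone (0.15), and ran from -0.21 to 0.0515 with 1 library left out, the latter without ligature replicate 3.

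In removal against naive, calls were lost with upper-quartile, TMM and median-of-ratios factors (Vegfa -0.15, -0.12 and -0.17; Adm -0.44, -0.41 and -0.46), and in set A (-0.32; -0.45) and set B alone (-0.38; -0.80). With 1 library left out Vegfa ran from -0.35 to -0.28 and Adm from -0.72 to -0.50. The replicate block gave -0.31 for Vegfa (edgeR adjusted p = 0.0695) and -0.61 for Adm (edgeR adjusted p = 0.0640), and both calls were lost. The labels do not say that replicate numbers pair libraries. Of 10 same-numbered pairs, 2 had deviations correlated above 0.1 (range -0.48 to 0.53), and both lay within set A. Naive and ligature replicate 3, both of set B, were at 0.0991, and every pair across the sets was below 0. The deviations also carry differences between the library sets, so they cannot decide whether the numbers pair libraries.

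In removal against ligature, Vegfa was called with upper-quartile (-0.29), TMM (-0.40) and median-of-ratios factors (-0.45), a set term (-0.32 in edgeR and in DESeq2) and in set A alone (-0.47). With 1 library left out Vegfa ran from -0.37 to -0.11, the latter without ligature replicate 1, and was called in none of these fits. Adm ran from 0.28 to 0.49.

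Set A holds 1 ligature library and set B 1 removal library, so fits of 1 set that use that group rest on 1 library, assumed to vary like the other groups.

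Of 150 genes called in ligature against naive, set A alone gave 84 (130 to 154 with 1 library left out). For removal against naive, 66 became 126 with a set term, 127 with limma on corrected values, 130 in DESeq2 with a set term, 41 in set B and 0 in set A. For removal against ligature, 35 became 8 with the replicate block, 61 in DESeq2 with a set term, 23 in set A and 0 in set B. Counts with 1 library left out ran from 38 to 78 and from 0 to 49. Removal against ligature gave 0 edgeR calls without ligature replicate 1 or 2 or removal replicate 2 or 4 (49 to 72 genes at an unadjusted p under 0.05), and the set fits with 0 calls had 89 (set A) and 19 (set B) such genes; DESeq2 was not run on these subsets. The cause of these changes was not tested. Depth limits Adm, at 56 to 161 counts per library.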
